A study of Mus musculus with 8 samples.

Results

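The data described here are the 4 control libraries of a mouse culture experiment of 8 samples, chosen by their titles (Control, replicates 1, 3, 4 and 5). Hematopoietic stem and progenitor cells (HSPCs) of C57Bl/6J mice had been sorted as cells without lineage markers that carried Sca1 and cKit, and 10000 of them were seeded in each well of a 48-well plate. They were cultured for 7 days in serum-free Stemline II medium with 100 ng/ml stem cell factor (SCF), 2 ng/ml Flt3 ligand and antibiotics, with a partial change of medium after 3 or 4 days and without the malonyl-CoA that the other group received. RNA of all the progeny of a well was isolated, so each library averages over every cell type present, and 350 ng of total RNA went into a strand-specific total RNA library. The study calls the replicates biological, without saying whether one stands for an animal, a pool or a culture, so the spread given here is that between these cultures. With a single untreated group there is no contrast and no p-value, and freshly sorted cells are not among the data used here, so a level describes day 7 and not a change since day 0.

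SCF signals through the receptor tyrosine kinase cKit, and Flt3 ligand through Flt3. Both act mainly on stem cells and early progenitors and support their survival and division, while lineage growth factors such as G-CSF, M-CSF, erythropoietin, thrombopoietin and interleukin 7 drive maturation along single branches. Maturing granulocytes make their granule proteins in order, first those of primary granules (myeloperoxidase, elastase) and later those of secondary and tertiary granules (lactoferrin, gelatinase), so that the genes on at a given time place cells along that path.

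Levels are given in TPM, a share of transcripts that takes gene length into account and allows genes to be compared, as mean ± SD over the 4 libraries. Spread between libraries is given as the ratio of the highest to the lowest library in CPM, a share of counts that ignores length, with TMM factors (edgeR's scaling between libraries). A TPM value also depends on the length mix of its library, so a CPM ratio can differ from the ratio of the TPM values printed beside it. A gene was called abundant at a mean of at least 100 TPM, expressed at 1 TPM or more in every library and silent under 0.1 TPM in every library. For genes with a mean of at least 10 CPM, which is 8883 genes, a ratio of at least 2 was called variable and a highest library less than 25% above the lowest even. A gene with 0 counts in all 4 libraries could still have held up to 0.0375 CPM, from 3 counts in the 80021294 counts of the 4 libraries together.

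The depth was 18233714 gene counts in control 1, 18887518 in control 3, 20820218 in control 4 and 22079844 in control 5. Mitochondrial-encoded genes took 3.98, 3.04, 2.55 and 6.79% of them, highest in control 5. Each library's deviation from the mean of the 4 was correlated across genes with GC content (Spearman rho 0.166, 0.317, 0.421 and -0.666) and with gene length (rho -0.336, -0.326, 0.305 and 0.152), given as a description because genes are not independent. Control 5 was thus low in GC-rich genes, and controls 1 and 3 were low and control 4 high in long genes. Because these trends touch every ratio, each was recomputed after every library's GC and length trend was removed (a corrected ratio) and with each library left out. Beside the ratio of a gene called variable or even, the corrected ratio is given where the call changed or the ratio moved by over 1.5 times. For variable genes the ratio without a library is given where it fell under 2 or by over 1.5 times. Over all genes of at least 10 CPM, 1083 were variable as counted and 596 after correction. Without controls 1, 3, 4 and 5 the number was 717, 1065, 518 and 652. A lower count in a list under these settings therefore has to be read beside the drop over all genes. Controls 1 and 3 were the most alike, with 0.495% of genes at least 2-fold apart, against 6.10% for controls 1 and 4.

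The most abundant protein-coding transcripts belonged to mitochondria, the translation machinery and the neutrophil primary granule. mt-Co1, a subunit of cytochrome c oxidase, led with 35141 ± 13235 TPM, ahead of mt-Nd1 with 20750.3 ± 8437 TPM and mt-Cytb with 20639.6 ± 9528 TPM. The nuclear genes among the 10 highest were Eef1a1 (an elongation factor, 17531 ± 3059 TPM), Rplp1 (11548 ± 3327 TPM), Rplp0 (7383 ± 1945 TPM) and Rps15 (6962 ± 1218 TPM), all of the ribosome or its factors, and Elane and Mpo. Reads that matched several places were not counted. Of the 50-base words, 57.9% for Eef1a1, 60% for Rplp1, 51.1% for mt-Co1, 41.8% for Rplp0 and 31.5% for Rps15 occur in other genes. Those levels are therefore uncertain. Elane, neutrophil elastase (ENSMUSG00000020125, chr10:79886247-79888215, plus strand), stood at 12721, 9876, 10933 and 5261 TPM in controls 1, 3, 4 and 5, lowest in control 5. Mpo, myeloperoxidase (ENSMUSG00000009350, chr11:87793581-87804413, plus strand), stood at 8774, 7518, 11553 and 5166 TPM, again lowest in control 5.

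Genes of the sorted cells were still present, but those typical of long-term stem cells were low. Of the 20 surface genes of stem and progenitor cells, 17 were expressed, 1 was silent and 6 were abundant. Over all protein-coding genes these shares were 49.0% expressed, 37.3% silent and 7.73% abundant. They are also the background for such counts in the lists that follow. Kit, the SCF receptor by which the cells were sorted, stood at 89.1, 80.2, 119 and 75.4 TPM, and Ly6a, which encodes Sca1, at 58, 169, 72.6 and 113 TPM. Ly6a was highest in control 3 and lowest in control 1, a ratio of 2.8 (1.96 without control 3), while Kit differed by only 1.34 times. Cd34, a progenitor surface protein, stood at 244 ± 20.9 TPM and Cd48, which is found on progenitors and most leukocytes but not on long-term stem cells, at 514 ± 62.8 TPM. Their counterparts on long-term stem cells were lower: Slamf1 (CD150) stood at 1.09 ± 0.387 TPM, Procr (EPCR) at 3.79 ± 3.9 TPM and Esam at 5.76 ± 0.656 TPM. Procr stood at 1.11, 8.59, 0.153 and 5.31 TPM, with control 3 highest and control 4 lowest, and Fgd5, a gene used to mark stem cells, was silent in all 4 libraries (0, 0, 2 and 1 counts). In bulk RNA, fewer cells of a type and less RNA per cell cannot be told apart, here and in every result that follows.

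Stem cell transcription factors divided in the same manner. Of 24, 20 were expressed, led by Lmo2 (432 ± 16 TPM) and Myb (141 ± 33.3 TPM), with Tal1 at 63 ± 3.91 TPM, Gata2 at 40.4 ± 7.57 TPM and Runx1 at 39.8 ± 6.75 TPM. Other factors of stem cells were lower. Meis1 stood at 7.65 ± 2.04 TPM, Hoxa9 at 5.71 ± 0.672 TPM, Hlf at 5.43 ± 0.436 TPM and Mecom (Evi1) at 0.144 ± 0.03 TPM. Of the 30 stem and progenitor genes of at least 10 CPM, 3 were variable (10%, against 12.2% of all genes at that level) and 4 were even (13.3%, against 23.0%). The 3 were Ly6a, Vwf (ratio 2.08, 1.51 corrected, 1.83 without control 4 and 1.52 without control 5) and Erg (ratio 2.19, 1.7 without control 1 and 1.88 without control 4).

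Among the antigens used to remove lineage cells, those of T cells and NK cells were low or at 0. Cd3e, a subunit of the T cell receptor complex, had 0 counts in every library. Cd4 stood at 0.493 ± 0.122 TPM, Cd8a at 1.2 ± 0.72 TPM and Klrb1c (NK1.1) at 0.744 ± 0.304 TPM. Ly6g, of mature neutrophils, was at or near 0, with 0, 2, 0 and 0 counts in controls 1, 3, 4 and 5. Itgam (CD11b), of myeloid cells, was the exception with 10.9, 17, 13.6 and 22.3 TPM (ratio 2.07, 1.92 without control 1 and 1.5 without control 5). The pan-leukocyte gene Ptprc stood at 37 ± 6.9 TPM. The granulocyte and monocyte antigen gene Ly6c2 reached 1290.0 ± 191 TPM, while its neighbour Ly6c1, which shares sequence with other genes (36.7% of its 50-base words), stood at 0.939 ± 0.284 TPM.

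Primary granule genes of neutrophil precursors were the most abundant lineage group. Of 16, 15 were expressed and 13 abundant. After Elane and Mpo came the serine proteases Ctsg (4882 ± 813 TPM) and Prtn3 (3328 ± 961 TPM), then Cst7 (a cysteine protease inhibitor, 1200.1 ± 65.8 TPM) and Ms4a3 (a marker of granulocyte-monocyte progenitors, 1078 ± 123 TPM). Bpi, which encodes the bactericidal permeability-increasing protein, was near 0 at 0.148 ± 0.146 TPM. The list's mean log2 CPM deviation from the 4-library mean was 0.23, -0.01, 0.04 and -0.26 in controls 1, 3, 4 and 5. Its 3 variable genes of 15 (20%, against 12.2%) were Elane (ratio 2.39, 1.83 corrected, 1.78 without control 1 and 1.35 without control 5), Prss57 (2.06, 1.68 corrected, 1.76 without control 1 and 1.42 without control 5) and Prtn3 (2.03, 1.34 corrected, 1.7 without control 1 and 1.3 without control 5). No gene of the list was variable after correction, without control 1 or without control 5. Over all genes the count fell from 1083 to 596, 717 and 652 in these settings.

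Genes of later granules were present at levels that differed by orders of magnitude. Lyz2, lysozyme, stood at 4704 ± 977 TPM, and S100a8 and S100a9, the subunits of calprotectin, at 3074 ± 1524 TPM and 2550.1 ± 1009 TPM. Specific granule genes were lower: Ngp stood at 155 ± 37.8 TPM, Camp (cathelicidin) at 66.9 ± 13 TPM, Lcn2 (lipocalin 2) at 35.7 ± 10.4 TPM and Ltf (lactoferrin) at 10.4 ± 3.66 TPM. Mmp8, neutrophil collagenase, stood at 91.8 ± 9.33 TPM, but Mmp9, gelatinase of the last granules, was at 0.277 ± 0.182 TPM and Retnlg, a gene of mature neutrophils, at 1.45 ± 0.875 TPM. S100a8 stood at 2389, 2801, 1825 and 5280.4 TPM, so control 5 was highest and control 4 lowest (ratio 3.39, 1.93 corrected, 2.21 without control 4 and 1.71 without control 5). Elane was lowest where S100a8 was highest. Of 14 later granule genes of at least 10 CPM, 5 were variable (35.7%, against 12.2% of all genes at that level) and none even (against 23.0%). In this list 2 were variable after removal of the GC and length trend and 3 without control 4 or control 5.

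Transcription factors of granulocytes and monocytes were expressed alongside the granule genes. Irf8, needed for monocytes and dendritic cells, stood at 232 ± 36.4 TPM, Cebpa, needed to enter the granulocyte and monocyte path, at 192 ± 34.4 TPM, and Spi1 (PU.1) at 167 ± 20.1 TPM. Cebpe and Gfi1, which act in granule protein expression and neutrophil maturation, stood at 60.9 ± 16.1 TPM and 49.9 ± 9.08 TPM. Of 16 such factors of at least 10 CPM, 5 were variable (31.25%, against 12.2%). They were Id2 (ratio 2.64, 1.55 without control 4 and 1.88 without control 5), Jun (2.53, 1.87 without control 3 and 1.59 without control 4), Klf4 (2.38, 1.83 without control 1 and 1.77 without control 4), Cebpb (2.31, 4.17 corrected, 1.81 without control 1 and 1.45 without control 5) and Cebpd (2.14, 1.96 without control 1 and 1.66 without control 4). Of the list 1 was variable without control 4, 2 without control 1 and 3 without control 5.

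Of 26 monocyte and macrophage genes, 21 were expressed and 12 abundant, while C1qa, C1qb, C1qc and Mrc1, of tissue macrophages, were low. Mpeg1 (perforin-2) stood at 863 ± 117 TPM, Ctss (cathepsin S) at 592 ± 100.2 TPM, F13a1 at 463 ± 59.2 TPM and Ccr2, the chemokine receptor of classical monocytes, at 274 ± 48.3 TPM. Csf1r, the M-CSF receptor, stood at 98.2, 122, 129 and 103 TPM, an even profile across the libraries (ratio 1.19, 1.31 corrected). The complement genes C1qa, C1qb and C1qc stood at 0.544, 1.09 and 0.499 TPM and Mrc1 (CD206) at 1.53 ± 0.48 TPM. Adgre1 and Cd68, also found in macrophages, reached a mean of at least 10 CPM (ratios 1.34 and 1.61). Spp1 (osteopontin) and Cd14 (the lipopolysaccharide co-receptor) varied most. Spp1 stood at 145, 423, 79.7 and 340.4 TPM (ratio 5.9, 2.8 without control 4) and Cd14 at 75.5, 177, 34.3 and 117 TPM (ratio 5.74, 2.25 without control 4). For both, controls 3 and 5 were the high libraries and controls 1 and 4 the low ones. In all, 5 of 18 monocyte and macrophage genes of at least 10 CPM were variable (27.8%, against 12.2%), and 3 without control 1.

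Dendritic cell genes were split between those shared with other cells and those of defined subsets. The genes of class II antigen presentation Cd74 (the invariant chain, 647 ± 215 TPM), H2-Aa (216 ± 68.8 TPM), H2-Ab1 (169 ± 69.5 TPM) and H2-Eb1 (158 ± 57.5 TPM) were abundant, although Ciita, their master regulator, stood at 1.75 ± 0.768 TPM. Siglech, a surface protein of plasmacytoid dendritic cells, stood at 96.9 ± 21.4 TPM, with Tcf4, their main transcription factor, at 15.7 ± 2.95 TPM. In all, 17 of 21 dendritic cell genes were expressed. Low among those of conventional dendritic cells were Zbtb46 at 0.515 ± 0.0649 TPM, Batf3 at 0.466 ± 0.0841 TPM, Clec9a at 2.81 ± 0.454 TPM and Xcr1 at 0.0873 ± 0.0815 TPM. Itgax, also a dendritic cell gene, reached a mean of at least 10 CPM (ratio 1.71). H2-Aa stood at 185, 309, 148 and 221 TPM, highest in control 3 and lowest in control 4. The 4 variable genes of 12 (33.3%, against 12.2%) were the 4 class II genes. Of these none was variable without control 3 and 1 was without control 4.

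Basophil genes were well above mast cell genes. Mcpt8, a protease of basophils, stood at 837, 922, 1086 and 1083 TPM and Prss34, another basophil protease, at 332, 494, 451 and 359 TPM, close together in all 4 libraries (ratios 1.31 and 1.43). Cpa3, a carboxypeptidase shared by both lineages and their progenitors, stood at 414 ± 80.5 TPM, and the IgE receptor subunits Fcer1a and Ms4a2 at 88.7 ± 11.3 TPM and 61.3 ± 11.9 TPM. The mast cell proteases were close to 1 TPM or under it. Cma1 stood at 1.15 ± 0.884 TPM, Tpsb2 at 1.07 ± 1.01 TPM, Mcpt4 at 0.241 ± 0.343 TPM, and Tpsab1 and Tph1 had 0 counts. Gzmb, granzyme B (ratio 2.52), was the 1 variable gene of 15 (6.67%, against 12.2%). In the eosinophil list, Prg2 (major basic protein, also made by basophils) stood at 674 ± 93.4 TPM, whereas Epx, eosinophil peroxidase, stood at 6.45 ± 2.44 TPM, Il5ra at 1.67 ± 0.598 TPM and Ccr3 at 0.519 ± 0.104 TPM.

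Platelet lineage genes were expressed throughout, while terminal erythroid genes were at or near 0. All 22 megakaryocyte and platelet genes were expressed. Pf4 (platelet factor 4) stood at 858, 1000.2, 724 and 1136 TPM, Ppbp at 809 ± 137 TPM, Itga2b (CD41) at 168 ± 45 TPM, and the glycoprotein genes Gp9 and Gp5 at 69.9 ± 14.2 TPM and 69.6 ± 7.38 TPM. Tubb1, a tubulin of proplatelets, was the lowest at 3.08 ± 0.741 TPM. Of 20 at 10 CPM or more, 5 were variable (25%, against 12.2%). They were led by Gp1ba (ratio 2.36, 1.47 without control 1), Clec1b (2.35, 1.86 corrected and 1.33 without control 5) and Gng11 (2.3, 1.82 without control 4 and 1.51 without control 5). The list had 2 variable genes without control 5, and 3 without control 1 or without control 4. Of 26 erythroid genes, 11 were expressed and 7 silent (26.9%, against 37.3% of all protein-coding genes). The expressed ones included Tfrc, the transferrin receptor of all dividing cells (357 ± 26.9 TPM), and Gata1 (21.5 ± 3.23 TPM), which also acts in megakaryocytes and basophils. Klf1, the erythroid factor, stood at 3.31 ± 0.331 TPM. Alas2, of heme synthesis in red cells, and Slc4a1 (band 3) had 0 counts in every library. The adult globin genes were at most 2.09 TPM, but over 50% of their 50-base words occur in other genes (58.3% for Hbb-bt), so these levels are uncertain.

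Early lymphoid genes were expressed, while genes of committed B or T cells were low or at 0. Dntt, the terminal transferase of early lymphoid cells, stood at 68.1, 67.1, 73.2 and 67 TPM, almost the same in all 4 libraries (ratio 1.08). Ighm, the immunoglobulin mu locus, stood at 614 ± 64.4 TPM and Il7r at 35.6 ± 7.27 TPM. Rag1 and Rag2, which together cut antigen receptor loci, stood at 4.8 ± 0.726 TPM and 6.93 ± 0.752 TPM. The B lineage factors Ebf1 and Pax5 stood at 0.133 ± 0.0569 TPM and 0.00372 ± 0.00743 TPM, Cd79a at 0.524 ± 0.316 TPM, Vpreb1 at 1.64 ± 0.532 TPM, and Lef1 had 0 counts. None of the 14 lymphoid and B lineage genes at 10 CPM or more was variable as counted, but 1 had a corrected ratio over 2. Even genes numbered 6 (42.9%, against 23.0%).

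Of 24 T, NK and innate lymphoid genes, 9 were expressed (37.5%, against 49.0% of all protein-coding genes). Of the 4 at 10 CPM or more, 2 were variable (50%, against 12.2%), 1 of them Klrd1 (ratio 2.76, 1.55 corrected and 1.43 without control 4). Cd7, found on early lymphoid progenitors and T cells, stood at 239 ± 42.6 TPM and Klrd1 (CD94) at 147 ± 48.3 TPM. Bcl11b, of T cell commitment, Ncr1 (NKp46) and Tbx21 (T-bet) were at or near 0, at 0.00489, 0.0214 and 0.0159 TPM. Of 20 genes of stroma and endothelium, 8 were silent (40%, near the 37.3% of all protein-coding genes). Col1a1 stood at 0.0168 ± 0.0224 TPM, Cxcl12 at 0.0187 ± 0.0159 TPM and Col3a1 at 0 counts. Cdh5 (VE-cadherin) stood at 3.71 ± 0.401 TPM. The expressed members led by Runx2 (54.1 ± 6.51 TPM) and Pecam1 (50.6 ± 15.2 TPM) are also made by blood cells.

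**Figure D1:**
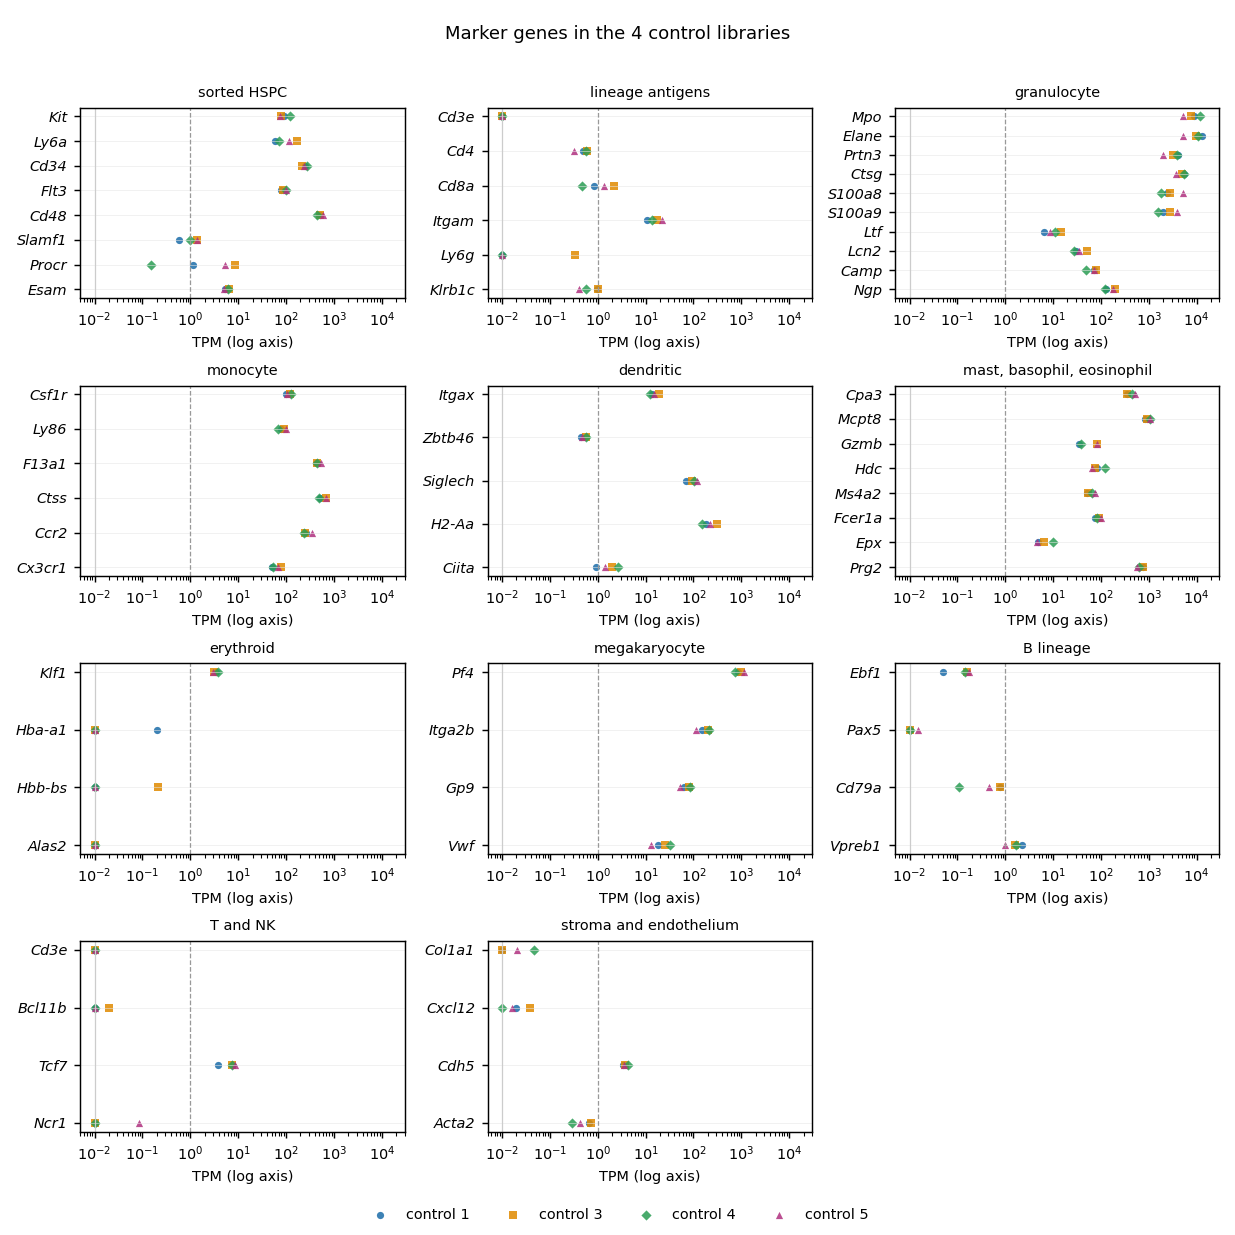
TPM on a log axis for marker genes of 11 cell types or sorting classes, 1 point per control library, with values under 0.01 TPM drawn at 0.01 and a dashed line at 1 TPM. Granulocyte, monocyte, basophil and megakaryocyte genes lie mostly above 10 TPM in all 4 libraries, and Cd3e, Pax5 and Alas2 lie at or next to the left edge.

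The receptors of both cytokines in the medium stood at the same mean level. Flt3 stood at 77.8, 85.4, 102 and 98.5 TPM and Kit at the values given above, with means of 90.8 ± 11.2 TPM and 90.8 ± 19.4 TPM. Their ratios between libraries were 1.28 and 1.34. Genes for the ligands themselves were low in these cells, with Kitl at 0.438 ± 0.172 TPM and Flt3l at 1.85 ± 0.882 TPM.

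Receptors of growth factors that the medium did not contain were widely expressed. Csf1r led the myeloid growth factor receptors at 113 ± 14.7 TPM, followed by Csf3r (the G-CSF receptor, 82.9 ± 25.3 TPM), Csf2rb (the common beta chain, 60.9 ± 13.2 TPM) and Csf2ra (the GM-CSF receptor alpha chain, 43.3 ± 9.1 TPM). The alpha chains for interleukins 3 and 5 differed: Il3ra stood at 25.7 ± 6.91 TPM and Il5ra at 1.67 ± 0.598 TPM. Epor, the erythropoietin receptor, stood at 4.59 ± 1.09 TPM. Il13ra1, of the interleukin 13 receptor, was the 1 variable gene of 9 myeloid receptors (11.1%, against 12.2%). Its levels were 16.8, 25.1, 12 and 27.9 TPM (ratio 2.72, 1.66 without control 4), low in controls 1 and 4 and high in controls 3 and 5.

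Among lymphoid cytokine receptors, Crlf2, the TSLP receptor chain, stood at 73.3 ± 23.6 TPM, Il2rg, the common gamma chain, at 46.2 ± 11.5 TPM and Il7r at 35.6 ± 7.27 TPM. The specific chains of interleukins 2 and 9, Il2ra and Il9r, stood at 0.205 ± 0.159 TPM and 0.0786 ± 0.0774 TPM. Il6st (gp130), the shared signal chain of the interleukin 6 family, stood at 53.8 ± 7.76 TPM with Il6ra at 16.1 ± 6.91 TPM, and the family members Osmr and Cntfr had 0 counts in every library. The type II interferon receptor chain Ifngr1 (325 ± 42.7 TPM) and the type I chains Ifnar2 (94.6 ± 7.37 TPM) and Ifnar1 (32 ± 4.42 TPM) were expressed, and the lambda interferon receptor Ifnlr1 stood at 0.0375 ± 0.0433 TPM. Tnfrsf1a and Tnfrsf1b, the TNF receptors, stood at 186 ± 33.7 TPM and 128 ± 22.3 TPM. Cxcr4, the CXCL12 receptor that holds HSPCs in marrow, led the chemokine receptors at 528 ± 43.5 TPM, and Ackr3, the other CXCL12 receptor, had 0 counts.

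Few genes of cytokine receptors and of the Janus kinases, STATs and SOCS proteins that act with them varied between libraries. Of 65 at 10 CPM or more, 4 were variable (6.15%, against 12.2%) and 18 were even (27.7%, against 23.0%). None was variable without control 4, where the count over all genes fell from 1083 to 518. All 4 were receptors, since none of the 18 Janus kinase, STAT and SOCS genes was variable. Jak1 and Jak2 stood at 70.5 ± 14.2 TPM and 69.1 ± 13.7 TPM, Stat5b at 65.3 ± 12 TPM against Stat5a at 25.1 ± 7.84 TPM, and Ptpn6 (SHP-1, a phosphatase that dampens cytokine receptors) at 194 ± 44.4 TPM. The feedback inhibitors that STAT5 induces were low, with Socs2 at 0.167 ± 0.138 TPM and Cish at 0.72 ± 0.658 TPM, while Socs4 to Socs7 stood between 12.7 and 28.9 TPM.

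Hematopoietic cytokine genes were low or off. Thpo, Epo, Il3 and Il5 had 0 counts in every library, and Csf3 and Csf2 stood at 0.0233 ± 0.0466 TPM and 0.232 ± 0.174 TPM. Osm (oncostatin M) was the highest at 10.7, 21.4, 8.47 and 10.1 TPM, with control 3 highest. Inflammatory chemokine genes were higher, with Ccl9 at 493 ± 116 TPM, Ccl3 at 204 ± 147 TPM and Ccl4 at 199 ± 157 TPM, and their spread between libraries is described further on. Ifng, Il10 and Il13 stood at 0.107, 0.171 and 0.0987 TPM.

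**Figure D2:**
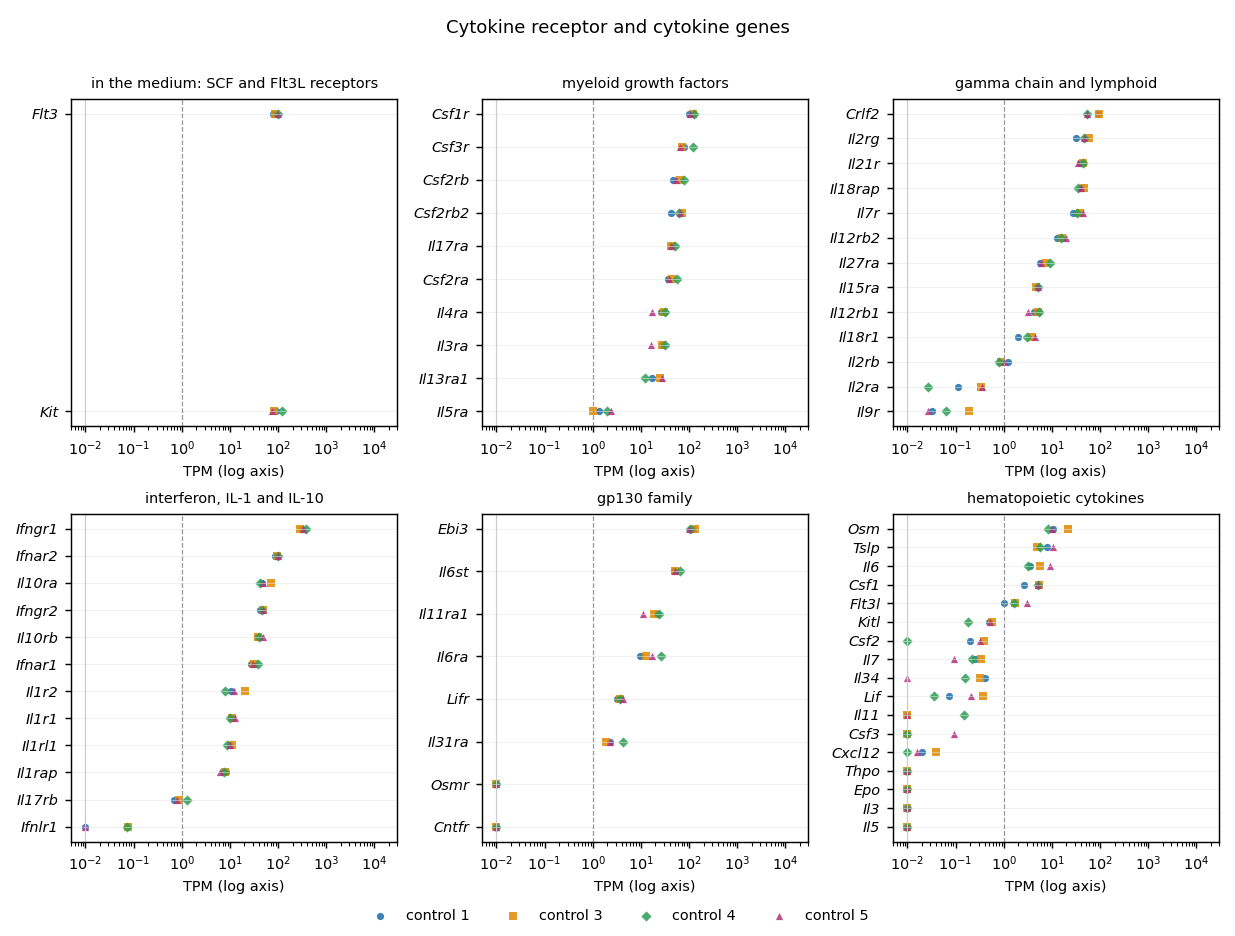
TPM on a log axis for 6 groups of cytokine receptor and cytokine genes, 1 point per control library, ordered by mean within a panel, with values under 0.01 TPM drawn at 0.01 and a dashed line at 1 TPM. Kit and Flt3 lie together near 90 TPM, and the points of most receptors lie close together, while Osmr, Cntfr, Thpo, Epo, Il3 and Il5 lie on the left edge.

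Genes of glycolysis were abundant, with 1 dominant form at most steps. Glycolysis breaks glucose down to pyruvate, and lactate dehydrogenase turns pyruvate into lactate. Of 27 genes, 25 were expressed and 11 abundant. Aldoa (aldolase) stood at 2079 ± 580.1 TPM against Aldoc at 85.4 ± 46.2 TPM, Ldha at 1885 ± 504 TPM against Ldhb at 31.6 ± 6.93 TPM, and Pkm at 1205 ± 255 TPM against the liver and red cell gene Pklr at 0.14 ± 0.105 TPM. Hk3, the hexokinase of myeloid cells, stood at 226 ± 77.8 TPM, above Hk2 at 74.7 ± 10.9 TPM and Hk1 at 49.9 ± 18.2 TPM. Gapdh was listed at only 5.86, 7.06, 6.53 and 26.5 TPM (ratio 4.75, 1.2 without control 5). Of its 50-base words, 27.2% occur in other genes, as do 72.2% for Eno1 and 68% for Pgk1, so these levels are uncertain.

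Glycolysis genes also varied between the libraries. Slc16a3, the lactate exporter MCT4, stood at 114, 161, 37.1 and 70.7 TPM in controls 1, 3, 4 and 5, and Slc2a1, the glucose transporter GLUT1, at 118, 155, 56.1 and 83.9 TPM. Aldoc stood at 85.3, 141, 28 and 87.1 TPM. All 3 were highest in control 3 and lowest in control 4, with ratios of 4.84, 3.07 and 5.61, and of 2.19, 1.77 and 1.59 without control 4. Without control 3 the ratio of Aldoc was 3.55. By contrast Slc16a1 (MCT1) stood at 149.6, 157, 179 and 157 TPM (ratio 1.06). The mean log2 CPM deviation of the 25 glycolysis genes was 0.11, 0.32, -0.31 and -0.12 in controls 1, 3, 4 and 5, and 0.07, 0.29, -0.44 and 0.07 with the GC and length trend removed. Variable genes numbered 8 of 25 (32.0%, against 12.2%), 9 with the trend removed and 4 without control 4. Over all genes the count fell from 1083 to 596 and 518 in these settings. Gapdh and Pgk1 (ratio 3.04, 1.6 without control 4), whose levels are uncertain, were among the 8.

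The enzymes downstream of pyruvate differed little between libraries. Of 34 genes of pyruvate entry and the tricarboxylic acid cycle, 33 were expressed. Of the 29 at 10 CPM or more none was variable and 13 were even, where 23.0% of all genes were even. Sdhd, a subunit of succinate dehydrogenase, stood at 757 ± 56.7 TPM, Mdh1 at 458 ± 20.04 TPM and Cs (citrate synthase) at 206 ± 19.5 TPM. Of the kinases that switch off pyruvate dehydrogenase, Pdk3 stood at 145 ± 13 TPM, Pdk1 at 96.5 ± 14.9 TPM and Pdk2 at 7.36 ± 2.1 TPM, and Pdk4, which fasting and fatty acids induce, had 0 counts. In the pentose phosphate pathway, which makes NADPH and ribose, Taldo1 stood at 627 ± 126 TPM and G6pdx at 211 ± 43.9 TPM. Its mean log2 deviation was 0.21, 0.09, 0.06 and -0.36, lowest in control 5. Pgls (ratio 2.75, 1.91 without control 5) was the 1 variable gene of 7 (14.3%, against 12.2%).

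Mitochondrial-encoded genes moved together and were highest in control 5. Their mean log2 deviation was 0.01, -0.37, -0.59 and 0.96 in controls 1, 3, 4 and 5, and -0.12, -0.39, -0.13 and 0.63 with the GC and length trend removed. mt-Nd2, a subunit of complex I, stood at 7289, 6398, 4986 and 16437 TPM. All 6 genes of at least 10 CPM were variable, 4 with the trend removed and none without control 5. The protein genes mt-Co2, mt-Co3, mt-Atp6 and mt-Nd4l stood at 0.0962, 0.0839, 0.396 and 0 TPM. Between 98.8% and all of their 50-base words occur in other genes, so these levels are uncertain.

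Lipid synthesis genes were expressed at high levels by a few enzymes. Scd2, a stearoyl-CoA desaturase, stood at 1328, 1456, 1367 and 1410.2 TPM, and its paralog Scd1 at 143 ± 29.4 TPM. Acly, which makes cytosolic acetyl-CoA, stood at 326 ± 48.5 TPM and Fasn, fatty acid synthase, at 57.4, 66.3, 128 and 39.9 TPM. Acaca, the acetyl-CoA carboxylase that makes malonyl-CoA for synthesis, stood at 9.74 ± 3.91 TPM (52.6% of its 50-base words occur in other genes), and its mitochondrial paralog Acacb at 0.201 ± 0.0735 TPM. Mlycd, which degrades malonyl-CoA, stood at 21 ± 6.22 TPM. Fasn was highest in control 4 (ratio 2.74, 1.55 corrected, 1.6 without control 4 and 1.93 without control 5). With Srebf1 (ratio 2.2, 1.37 corrected and under 2 without control 4 or control 5) it made up the 2 variable genes of 16 (12.5%, against 12.2%). After correction 1 gene of the list was variable, and none was without control 4 or without control 5.

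Few fatty acid oxidation genes varied. Acsl5, which activates fatty acids to their CoA form, stood at 219, 230.2, 264 and 224 TPM (ratio 1.04 in CPM), and Acadl, a long-chain acyl-CoA dehydrogenase, at 216 ± 25.6 TPM. Cpt1a, the carnitine palmitoyltransferase that malonyl-CoA inhibits, stood at 20.5, 24.4, 31.8 and 22.8 TPM, while the muscle form Cpt1b had 0 counts in every library and Cpt1c stood at 0.403 ± 0.136 TPM. The regulator Ppara had 0 counts, Ppargc1a stood at 0.0458 ± 0.0192 TPM and the fatty acid importer Cd36 at 0.215 ± 0.175 TPM. Of 24 genes, 1 was variable (4.17%, against 12.2%), namely Etfb (ratio 2.2, 1.84 corrected and 1.29 without control 5), and 7 were even (29.2%, against 23.0%).

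Of 27 cholesterol synthesis and uptake genes, 26 were expressed, led by Hmgcs1 (396 ± 44.5 TPM) and Cyp51 (367 ± 79.1 TPM). The exception, the efflux gene Abca1, stood at 1.34 ± 0.767 TPM. Lpl, lipoprotein lipase, was the most variable gene of this list with 6.34, 23.6, 5.33 and 23.6 TPM (ratio 5.18), high in controls 3 and 5 and low in controls 1 and 4. The list's mean log2 deviation was 0.07, 0.25, -0.25 and -0.07, highest in control 3 and lowest in control 4.

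Genes of serine, one-carbon and nucleotide synthesis were abundant. Psat1, of serine synthesis, stood at 824 ± 69.1 TPM, Asns (asparagine synthetase) at 596 ± 28.1 TPM and Mthfd2, a mitochondrial folate enzyme of dividing cells, at 273, 298, 325 and 279.6 TPM (ratio 1.05 in CPM). Arg1, arginase, had 0 counts in every library and Gls2, a glutaminase, stood at 0.21 ± 0.108 TPM. All 21 purine and pyrimidine genes were expressed, from Rrm2b at 7.79 ± 0.709 TPM to Hprt at 1269 ± 163 TPM, and 7 of 21 were even (33.3%, against 23.0%). Rrm2, the S-phase subunit of ribonucleotide reductase, stood at 259.7 ± 17 TPM. Among antioxidant genes, Gpx1 (glutathione peroxidase) stood at 2113 ± 529.5 TPM and Txn1 (thioredoxin) at 1292 ± 112 TPM. Hmox1, heme oxygenase, was the most variable with 45.3, 90.7, 17.7 and 48 TPM (ratio 5.7, 3.09 without control 3 and 1.92 without control 4), lowest in control 4.

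**Figure D3:**
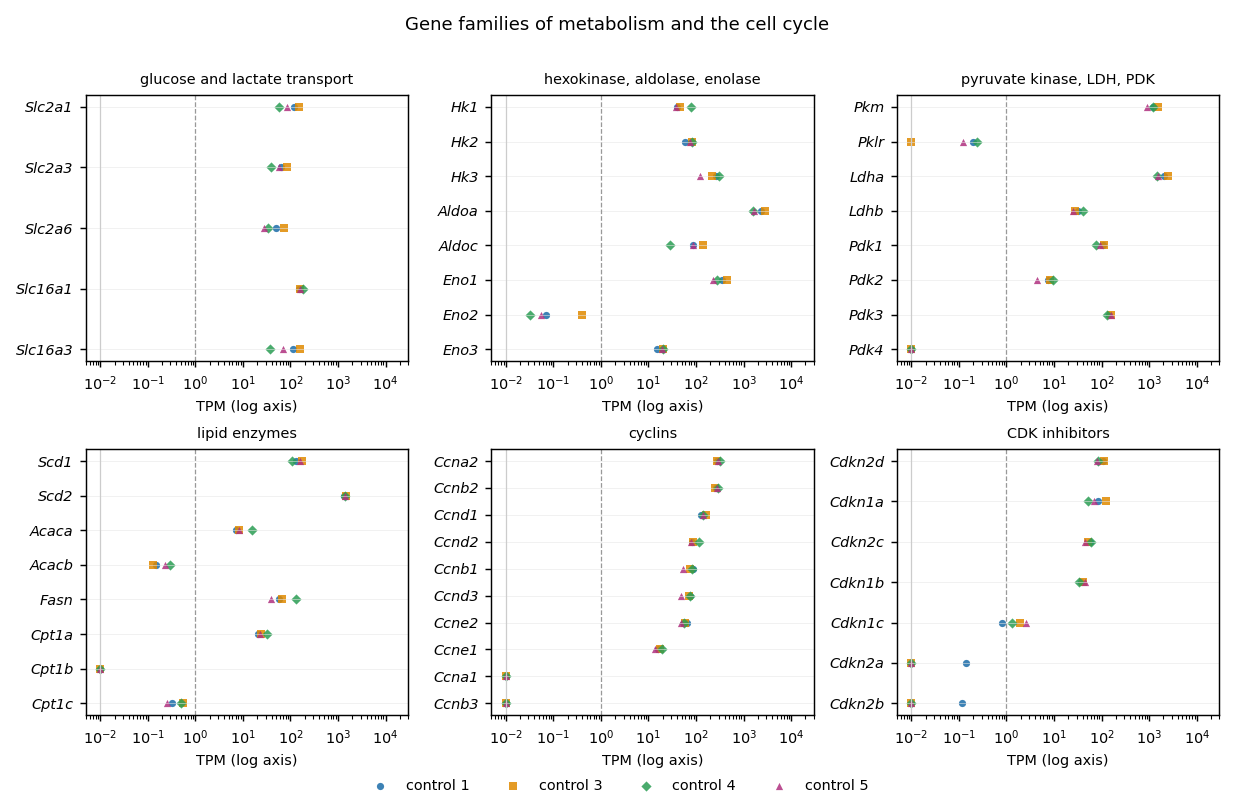
TPM on a log axis for gene families of metabolism and the cell cycle, 1 point per control library, with values under 0.01 TPM drawn at 0.01 and a dashed line at 1 TPM. Scd2 lies above Scd1, Ldha above Ldhb and Cpt1a above Cpt1b in every library, and in the glucose and lactate transport panel control 3 lies at the right for Slc2a1 and Slc16a3 and control 4 at the left.

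Genes of the cell cycle and of apoptosis were expressed almost without exception. Of 132 genes of both kinds, 126 were expressed and 2 were silent. The mitotic cyclin Ccna2 led the cyclins at 277, 271, 324 and 283 TPM, followed by Ccnb2 (269.6 ± 19.6 TPM). All 3 D cyclins, which respond to growth factors, were on, with Ccnd1 at 143 ± 15.7 TPM, Ccnd2 at 91.7 ± 16.5 TPM and Ccnd3 at 66.5 ± 12.1 TPM. Of the E cyclins of S-phase entry, Ccne2 (56.7 ± 7.2 TPM) was above Ccne1 (16.5 ± 2.33 TPM) in every library. The germ cell cyclins Ccna1 and Ccnb3 had 0 counts. None of the 8 detected cyclins was variable, and 4 were even as counted (50%, against 23.0%). Their median ratio was 1.26 as counted and 1.29 after correction.

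Most kinases differed little between libraries. Cdk4 stood at 522 ± 94.2 TPM, its partner in the D cyclin complexes Cdk6 at 137 ± 12.4 TPM, and Cdk1, the kinase of mitosis, at 146, 137, 152 and 146 TPM. Of 11 kinases and CDC25 phosphatases, 7 were even (63.6%, against 23.0%) and 1 was variable, namely Pkmyt1 (ratio 2.23, 1.59 corrected and 1.17 without control 5). Among the inhibitors, Cdkn2d (p19) stood at 96.1 ± 15.5 TPM, Cdkn1a (p21) at 85.5, 125, 50.7 and 68.4 TPM, Cdkn2c (p18) at 54 ± 7.16 TPM and Cdkn1b (p27) at 39.2 ± 5.63 TPM. Cdkn1a was highest in control 3 and lowest in control 4 (ratio 2.73, 1.92 without control 3 and 1.75 without control 4). Cdkn1c (p57), an inhibitor of quiescent stem cells, stood at 1.64 ± 0.753 TPM. Cdkn2a and Cdkn2b, of the senescence locus, were near 0 at 0.0344 and 0.029 TPM, from 1, 0, 0 and 0 counts for Cdkn2a.

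Myc stood at 249 ± 41.7 TPM, Mycl at 28.6 ± 2.97 TPM and Mycn at 12.1 ± 1.95 TPM, and of the E2F factors E2f4 (84.8 ± 25 TPM) and E2f1 (52 ± 10.6 TPM) were highest. All 33 DNA replication genes were expressed, from Orc1 at 12.2 ± 3.25 TPM to Pcna, the sliding clamp, at 492 ± 15.5 TPM (31.8% of its 50-base words occur in other genes). Mcm6, of the replicative helicase, stood at 474 ± 56.2 TPM. Of the 33, 7 were variable (21.2%, against 12.2%), 3 with the GC and length trend removed, 3 without control 4 and 4 without control 1. Over all genes the count fell from 1083 to 596, 518 and 717 in these settings. Their mean log2 deviation was -0.10, -0.09, 0.24 and -0.05, highest in control 4, and -0.11, -0.08, 0.22 and -0.02 with the trend removed.

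All 29 mitosis genes were expressed, led by Aurkb (152 ± 25.5 TPM) and Cdc20 (148 ± 37.3 TPM). The proliferation marker Mki67 stood at 6.01, 10.7, 42.8 and 19.2 TPM and the kinetochore motor Cenpe at 1.65, 3.7, 11 and 5.82 TPM. Both were highest in control 4 and lowest in control 1, with ratios of 6.14 and 5.79, and 5.3 and 5.55 with the GC and length trend removed. Without control 1 the ratios were 3.6 and 2.69, and they were 3.19 and 3.53 without control 4. Merged exon length was 10061 bases for Mki67 and 8620 for Cenpe. Birc5 (survivin, 3402 bases) had a ratio of 1.09 and Plk1 (polo-like kinase, 2199 bases) of 1.47. The list's mean log2 deviation was -0.23, -0.16, 0.26 and 0.13, and -0.22, -0.13, 0.26 and 0.09 with the trend removed. Of the 29, 7 were variable (24.1%, against 12.2%), and 7 with the trend removed. Over all genes the count fell from 1083 to 596 with that step. Without controls 1, 3, 4 and 5 the list held 6, 8, 5 and 5 variable genes. Among apoptosis genes, Mcl1, needed for survival of progenitors and neutrophils, stood at 348 ± 41.6 TPM, above Bcl2 (60.2 ± 11.6 TPM) and Bcl2l1 (21.4 ± 4.85 TPM).

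Over all genes of at least 10 CPM, 1083 of 8883 (12.2%) were variable and 2039 (23.0%) even. The median ratio was 1.42, and edgeR's common biological coefficient of variation was 0.222. Variable genes were highest in control 4 in 588 cases (54.3%) and lowest in control 1 in 557 (51.4%). The genes highest in control 4 had a median exon length of 7638 bases, against 4621 for all genes at this level, and those lowest in control 5 had a median GC content of 58.3%, against 49.0%. With GC and length trends removed, 596 genes were variable, of which 533 were among the 1083. Without control 4, 518 genes were variable, without control 5 it was 652 and without control 1 it was 717. Just under the threshold of 2 stood Ltb4r1 and Gga1, both at a ratio of 2.00 after rounding, and just over it Rpl11 and Rrp9. Just inside the limit for even genes stood Pde6d and Acat2, and just outside it Cyld and Got1.

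Response genes held a larger share of variable members than all genes at that level. Of 89 genes in the immediate early, interferon, NF-kB, integrated stress and p53 lists, 33 (37.1%, against 12.2%) were variable. Of 16 immediate early genes, which growth factors and stress induce within minutes, 10 were variable (62.5%, against 12.2%), 10 with the GC and length trend removed and 2 without control 4. Atf3 stood at 13.8, 38.5, 6.26 and 19.9 TPM (ratio 6.83, 3.62 without control 3 and 2.68 without control 4), Jund at 60.5, 103, 25.5 and 62.6 TPM (ratio 4.49, 2.8 without control 3 and 1.63 without control 4) and Dusp1 at 12.7, 19.6, 6.79 and 15.3 TPM (ratio 3.21, 1.48 without control 4). Fos itself differed by 1.23 times. Of 12 hypoxia-responsive genes, a list outside that total, 5 were variable (41.7%, against 12.2%) and none without control 4. Bnip3, a mitophagy receptor, stood at 308, 405, 89.4 and 389 TPM and Ankrd37 at 49.6, 64.3, 12.5 and 52.8 TPM, with Slc2a1 as given above, and control 4 was lowest for all 3. The list's median ratio was 1.9, against 1.42 over all genes. Its 2 even genes were Vegfa at 40.7, 45.5, 42.8 and 36.4 TPM (ratio 1.19) and Hif1a, the oxygen-regulated factor itself (ratio 1.17, 1.26 corrected).

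Of 28 interferon response genes, 13 were variable (46.4%, against 12.2%), 12 with the GC and length trend removed, 4 without control 3 and 8 without control 4. Isg15, a ubiquitin-like modifier, stood at 101, 221, 97.3 and 96.1 TPM (ratio 2.53, 1.18 without control 3), Rtp4 at 18.5, 39.5, 12.8 and 25.1 TPM (ratio 3.43, 2.24 without control 3 and 2.05 without control 4) and Usp18, which removes Isg15 from proteins, at 46.9, 89.4, 37.2 and 43.4 TPM (ratio 2.67, 1.44 without control 3 and 1.98 without control 4). All 3 were highest in control 3. The interferon gene Ifnb1 stood at 0.84 ± 0.822 TPM. Of 16 NF-kB response genes 5 were variable (31.25%, against 12.2%), and 1 without control 3 or without control 4. Atf4, the main factor of the integrated stress response, stood at 912, 1023, 1060.2 and 996 TPM (ratio 1.1, 1.43 corrected). Of 19 genes of that response 3 were variable (15.8%, against 12.2%), 2 after correction and 1 without control 5. They were Slc7a11 (the cystine importer, ratio 2.42, 1.75 without control 3 and 1.43 without control 4), Cebpb and Phgdh (of serine synthesis, ratio 2.25, 1.59 corrected and 1.09 without control 5), which has 63.1% of its 50-base words in other genes. Of 12 p53 target genes 3 were variable (25%, against 12.2%). They were Cdkn1a, Bbc3 (PUMA, ratio 2.5, 1.46 corrected and 1.35 without control 5) and Pmaip1 (NOXA, ratio 2.25, 1.91 corrected and 1.5 without control 4). Of that list 1 was variable after correction and 1 without control 4.

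**Figure D4:**
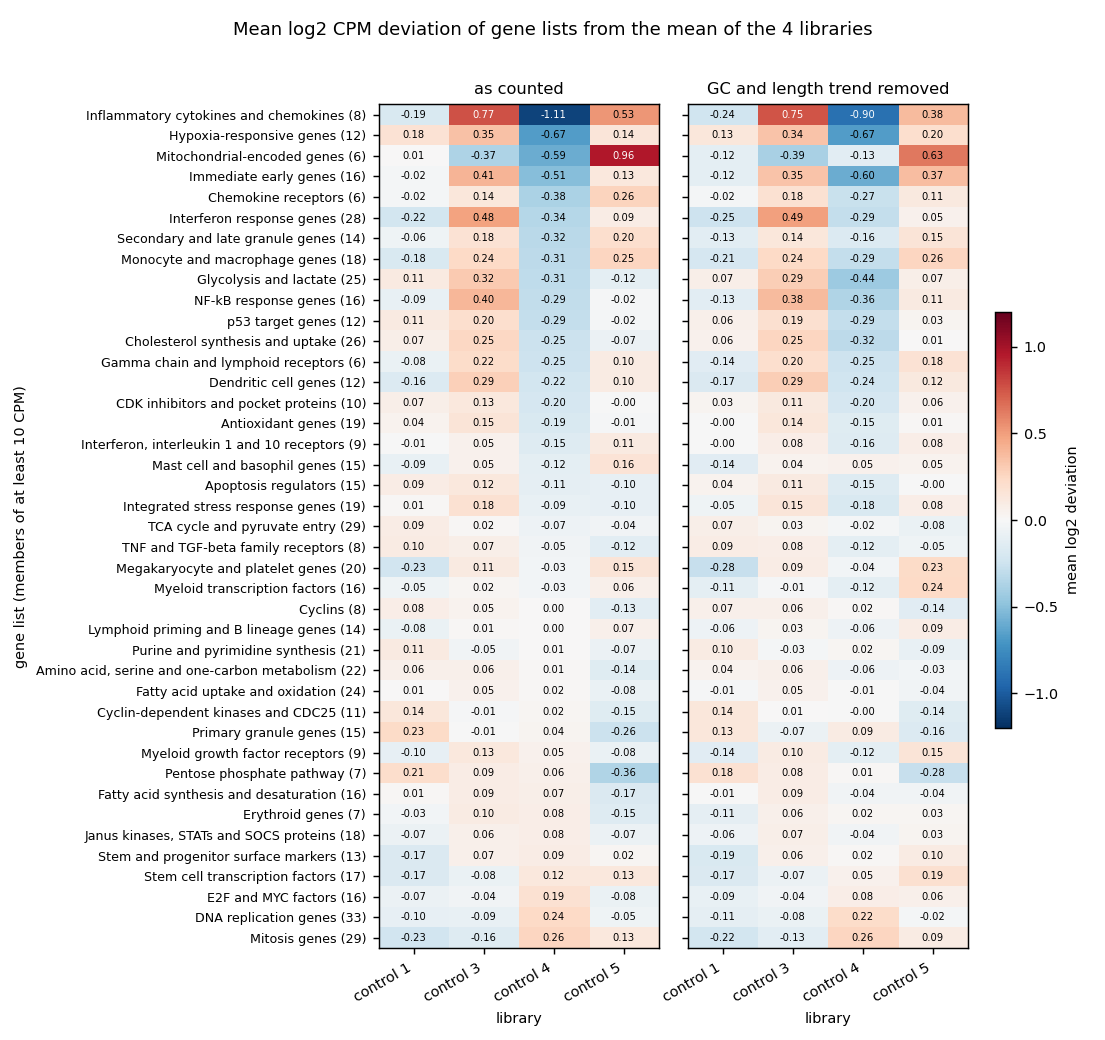
Mean log2 CPM deviation from the 4-library mean for each gene list with at least 6 members of at least 10 CPM, by control library, as counted (left) and with the GC and length trend removed (right), sorted by control 4. Inflammatory cytokine, hypoxia-responsive, immediate early and interferon response lists are lowest in control 4 in both panels and highest in control 3 as counted, and the 6 mitochondrial-encoded genes are highest in control 5.

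Promoters of some genes from the interferon and hypoxia groups that held a match are shown. They are the 250 bases before the RefSeq start (GRCm38.p6), 5′ to 3′ on the gene's strand, with the searched motif in capitals. The letters searched on both strands were GAAA, any 2 bases and GAAA for interferon genes, and ACGTG, the core of the hypoxia element, for the others. In Isg15 (chr4:156200819-156201068, minus strand) 3 overlapping interferon motifs lie together. In Bnip3 (chr7:138909507-138909756, minus strand) the capitals CACGTG read the same on both strands and so count as 2 matches, and Slc2a1 (chr4:119108495-119108744, plus strand) holds 1 match.
Isg15: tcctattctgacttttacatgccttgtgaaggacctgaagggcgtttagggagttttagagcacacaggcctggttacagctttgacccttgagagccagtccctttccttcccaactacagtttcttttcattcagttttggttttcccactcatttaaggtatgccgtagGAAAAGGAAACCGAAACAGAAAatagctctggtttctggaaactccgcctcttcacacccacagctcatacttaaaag
Bnip3: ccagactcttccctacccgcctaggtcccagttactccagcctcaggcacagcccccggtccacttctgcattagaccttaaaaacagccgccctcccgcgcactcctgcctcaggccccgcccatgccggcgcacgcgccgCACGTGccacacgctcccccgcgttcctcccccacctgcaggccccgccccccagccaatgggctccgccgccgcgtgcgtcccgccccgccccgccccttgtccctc
Slc2a1: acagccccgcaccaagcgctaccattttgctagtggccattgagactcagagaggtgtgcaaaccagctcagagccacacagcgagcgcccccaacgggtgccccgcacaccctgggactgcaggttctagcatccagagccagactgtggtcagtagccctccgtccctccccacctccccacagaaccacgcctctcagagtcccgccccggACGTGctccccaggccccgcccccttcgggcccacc

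Of the 24 interferon response genes with a RefSeq promoter, 12 (50%) held the interferon motif, against 3.05% of all 27025 promoters of that length. The hypoxia letters occurred in 9 of 12 hypoxia-responsive promoters (75%) and in 10 of 26 glycolysis promoters (38.5%), against 16.5% of all. The NF-kB letters (GGGA, any base, TT, any base, CC, on both strands) occurred in 4 of 20 NF-kB response promoters (20%), against 0.958% of all. The same letters occurred in 4 of 21 promoters of inflammatory cytokine and chemokine genes. The AP-1 letters (TGA, any base, TCA) occurred in none of 18 immediate early promoters, against 6.84% of all. Among single genes searched, the promoters of Ccl3, Il1b, Tnf and Acod1 held no match to the NF-kB letters. That of Mmp12 held none to the AP-1 letters and that of Aldoc none to the hypoxia letters. These matches describe the letters in this window and nothing about binding.

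Several of the genes with the largest ratios are known as products of activated macrophages and monocytes. Mmp12 (macrophage elastase, ENSMUSG00000049723, chr9:7344381-7369499, plus strand) stood at 1.68, 48.5, 0.232 and 37.8 CPM in controls 1, 3, 4 and 5, a ratio of 209 from 30, 919, 5 and 820 counts and of 28.9 without control 4. Ccl4 and Ccl3, chemokines that call in monocytes and T cells, stood at 29.8, 84.1, 4.27 and 60.7 CPM and 34.9, 92.5, 8.59 and 76.1 CPM. Both were highest in control 3 and lowest in control 4, and the profile of Mmp12 was the same. Clec4n (dectin-2, 11.6, 81.4, 4.64 and 41.6 CPM), Ccl6 (11.2, 47.9, 5.29 and 35.4 CPM), Hcar2 (the nicotinic acid receptor, 15.2, 30.5, 2.55 and 22 CPM) and Acod1 (which makes itaconate, 17, 51.9, 7.52 and 40.6 CPM) had that order of libraries too, with ratios from 6.9 to 17.5. Without control 4 these lay between 2.01 and 7.03, and Clec4n had 8.72 without control 3. Upp1 (uridine phosphorylase) and Basp1 were also lowest in control 4, but Basp1 was highest in control 5.

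The other 3 of these 12 genes were highest in control 4 and lowest in control 1. Myh9, the heavy chain of non-muscle myosin, stood at 38.5, 82.8, 263 and 96.9 CPM (ratio 6.84, 3.18 without control 1 and 2.49 without control 4), Tcof1, of ribosomal RNA synthesis, at 6.43, 14.3, 58.2 and 22.3 CPM, and Slfn9 at 2.69, 6.17, 24.6 and 18.5 CPM. Among the 8 inflammatory cytokine and chemokine genes of at least 10 CPM, 5 were variable (62.5%, against 12.2%), 4 without control 4 and 4 without control 3. Their mean log2 deviation was -0.19, 0.77, -1.11 and 0.53 in controls 1, 3, 4 and 5. Spp1, Cd14 and Gpnmb (ratio 2.57), macrophage markers with the same libraries high, stand beside these values, while C1qa, C1qb and C1qc stayed near or under 1 TPM. Other macrophage genes did not share this spread, such as Csf1r (ratio 1.19) and Adgre1 (ratio 1.34). Of the 18 monocyte and macrophage genes of at least 10 CPM, 5 were variable, 2 were even and 3 were lowest in control 5. Whether the number of monocytes or macrophages differed was not tested.

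**Figure D5:**
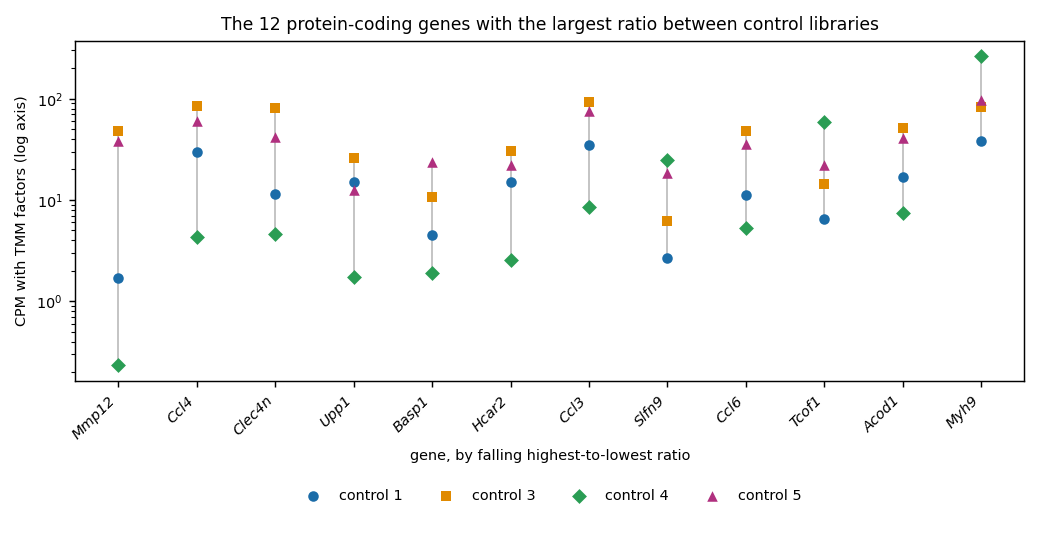
CPM with TMM factors on a log axis for the 12 protein-coding genes of at least 10 CPM with the largest highest-to-lowest ratio, 1 point per control library and a line from the lowest to the highest. Control 4 is lowest for 9 of the 12 and highest for Slfn9, Tcof1 and Myh9.

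The genes of at least 100 CPM with the smallest ratios included genes of membrane traffic, RNA handling and mitochondria. Copa, of the COPI coat, stood at 563, 562, 564 and 553 CPM (ratio 1.02) and Ddx3x, an RNA helicase, at 595, 598, 608 and 598 CPM (ratio 1.02). Actl6a, Ctse, Vdac1, Gabarapl1, Nek9, Blmh, Fam20b and Acsl5 followed with ratios up to 1.04. With the GC and length trend removed, Copa and Ddx3x had ratios of 1.2 and 1.28, so the order among steady genes depended on that step.

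No RNA of the Y-linked genes examined was counted. Ddx3y, Eif2s3y, Kdm5d and Uty, all on the Y chromosome, had 0 counts in every library, and Xist, of the inactive X chromosome, stood at 5.88, 8.41, 19.6 and 12.1 TPM. Malat1 and Neat1, long RNAs kept in the nucleus, stood at 14 ± 6.2 TPM and 1.37 ± 0.36 TPM. Of 19 replication-dependent histone genes, whose RNA carries no poly(A) tail, only Hist1h4i (55.1 ± 3.69 TPM), Hist1h1c (53 ± 5.82 TPM) and Hist1h2bc (51.3 ± 15 TPM) were above 1.3 TPM, although the labels name a total RNA kit and the replication genes were high. Several histone genes share 50-base words with copies, up to 93.1% for Hist1h2ap, and the reason for the low values was not tested.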

How the data were processed

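The authors deposited raw counts per Ensembl gene, 1 file per library, with no normalization. Per the submitters' processing notes, HTSeq 0.6.1, STAR 2.5.2b and cutadapt 1.8 were used, with genome build GRCm38. The release of the gene annotation was not given in the sources used here, nor was the strandedness of counting. Overlapping and antisense genes are therefore uncertain. The last 5 entries of each file are counter classes that name no gene and were left out. Of all tallied reads, 1.11% to 1.56% lay outside genes, 0.715% to 0.855% were ambiguous and 44.3% to 51.1% aligned to several places, so genes with near-identical copies lose reads. The 4 malonyl-CoA libraries were not used.

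Of 48709 identifiers, 48349 matched GENCODE M21 on GRCm38, which gave symbols, coordinates, merged exon length and GC content. TPM used that length. CPM used TMM factors of edgeR 4.0.16 in R 4.3.3, which also gave the biological coefficient of variation (estimateDisp with an intercept only, genes kept by filterByExpr). Each library's log2 CPM deviation (prior count 2) was corrected for GC content, or GC content and length, by a lowess fit (span 0.5, statsmodels 0.14.6). The share of each gene's 50-base words found in non-overlapping genes was computed from the GENCODE transcripts. The uncorrected ratios were checked on simulated counts with known changes. The simulated spread was smaller than in these data, so the check cannot show how many unchanged genes reach a ratio of 2 here. Corrected ratios were not checked in that manner. Promoter sequences are those of RefSeq for GRCm38.p6.

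At 10 CPM a gene had 182 to 221 counts, a counting error of at most 7.41%. The limit given for 0 counts covers counting error only. As a check for a duplicated library, and for nothing more, counts were compared between libraries, and the closest pair, controls 1 and 3, differed beyond sampling noise (chi-square per gene 15.1).

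The libraries and the 52 gene lists (925 symbols, 3 unmatched) were chosen from general knowledge with earlier results of these data known. Named outside the lists are the 10 protein-coding genes with the highest TPM, the 12 with the largest ratio at 10 CPM or more, and the 10 with the smallest ratio at 100 CPM or more, predicted models left out. Every list member could be named, except some that are counted in their lists but not reported here. In each list the rule gives the highest, the lowest, the most variable and the silent members, and other members were named after their values were seen. No test between groups was made. Alternatives were other scaling factors, filters, thresholds, GC and length corrections, gene lengths, denominators, and each library left out.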

Additional observations from a re-analysis of the deposited data

Results flagged for a closer look

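Among 181 values tested, 4 had a single control library far from the other 3, where the gap to the nearest library was most of the whole range. Chance gives such a value in about 1 in 20 groups of this size. The summed CPM of interferon, interleukin 1 and interleukin 10 receptor genes was 780.4 in control 5, against 703 to 715 in the others. The summed CPM of the 33 DNA replication genes was 6387 in control 4, against 5115 to 5209. Irf8, the factor of monocytes and dendritic cells, was lowest in control 5 with 452 CPM, against 564 to 574. Ctse (cathepsin E) was lowest in control 4 with 250.3 CPM, against 256 to 257, and remains among the 10 steadiest genes.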

How the results depend on the processing

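No paired analysis was possible because only 1 group was described and no test was made. The counts of abundant, expressed, silent and undetected genes, the median ratio and the common coefficient of variation stayed within 1.5 times their value under every alternative run. The number of variable genes (1083) was 2077 with a minimum of 1 CPM, 374 with 50 CPM, 5479 with no minimum and a prior count of 2, 596 with GC and length corrected, 3624 at a threshold of 1.5 and 210 at 3, and 518 to 1065 with 1 library left out (518 without control 4). A ratio over 3 libraries is mostly smaller by construction. The number of even genes (2039) was 1195 with a minimum of 50 CPM, 3410 with GC and length corrected, and 2444 to 4544 with 1 library left out. With all tallied reads as the denominator the mean share was 2.00% for mitochondrial-encoded genes, 3.23% for ribosomal protein genes, 0.00546% for Malat1, Neat1 and Xist together and 3.97% for the 10 most abundant genes, in place of 4.09%, 6.53%, 0.0109% and 8.04%. Of 653 single ratios, 63 fell under 2 without control 4, and 35 fell under 2 and 11 rose to 2 with GC and length corrected. The variable members changed by over 1.5 times in 28 of 52 lists without control 4, 20 without control 5, 9 without control 1, 8 without control 3, 14 with GC corrected, 4 with library size only and none with RLE factors. Depth limits genes under 1 CPM, which rest on few counts.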
